A study of Homo sapiens with 8 samples.

Results

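The genes described here encode splicing factors and the kinases that phosphorylate SR proteins. They were 40 genes chosen by name, and a probe set of the array counted as a member when the platform annotation gave it exactly 1 of these symbols. By that rule 142 of 54675 probe sets, from 38 of the 40 genes, were members, and none needed an older symbol. SRSF2, whose 3 probe sets also carry another gene's symbol, and PRPF4B had no such probe set, so neither is described. Of the 142 probe sets, 114 had a mean above 7.43 on the log2 scale, the median over all probe sets, and were tested, while 28 were too dim. All 38 genes kept at least 1 tested probe set, and 30 kept at least 2.

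The study used HepG2, an established human hepatocellular carcinoma line, to ask how quercetin, a plant flavonol, alters gene expression. The cells were starved of serum and then held in serum-free medium, either alone (control) or with 3 µM quercetin. RNA taken at 2, 4, 12 and 24 h was hybridised to 8 Affymetrix arrays, 1 for each treatment and time, so no condition had a replicate. All groups shared the serum withdrawal, no array was taken before it or in serum, and a change with time cannot be told apart from time in serum-free culture or from a batch of arrays.

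Splicing removes introns from precursor RNA in the spliceosome, which is built from small nuclear ribonucleoproteins and many proteins. SR proteins bind exons through RNA recognition motifs and recruit spliceosome parts through domains rich in arginine and serine, and hnRNP proteins often oppose them. The SRPK kinases phosphorylate SR proteins in the cytoplasm and the CLK kinases in the nucleus, which sets where SR proteins are and when they act. Many of these genes control their own RNA through retained introns or exons that carry a stop codon, so that probe sets placed in different parts of 1 gene can read different RNAs. Probe positions were not used here. Probe sets whose name ends in x_at hold probes that also match other sequences.

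The arrays differed in ways that touch the results. The mean of the 18 hybridisation spike-in probe sets was 11.24 in the control 2 h array and 11.19 and 11.35 in the 12 h arrays, against 11.83 to 12.11 in the other 5. The 18S rRNA mean ranged from 7.29 to 12.01, and the 2 h pair spanned most of it, with 8.57 for control and 12.01 for quercetin. The 3′ minus 5′ difference of ACTB, a sign of RNA integrity, was 1.40 in the control 12 h array, 0.88 in its quercetin partner, 1.36 and 1.39 in the 24 h arrays and 0.88 to 1.17 in the 2 h and 4 h arrays. The SD over all probe sets of an array ran from 1.74 to 1.95 and was highest in both 24 h arrays, so that the time change of a bright probe set depended on how the arrays were scaled. Time calls were therefore also made after median centring, cyclic loess and quantile normalization, and counts under a single scaling are given for some contrasts. A call made with 1 sign under these 3 and the deposited values is said to hold under all 4 scalings, and a called change described below that did not hold is said not to. Of 12 hepatocyte markers, 11 were above the filter, and ALB lay between 14.91 and 15.12 in every array. Above the filter were also 3 of 6 leukocyte markers, 4 of 6 fibroblast, 1 of 4 endothelial and 3 of 5 other epithelial markers. The leukocyte marker LYZ lay between 13.40 and 14.22, and the others of these between 6.93 (PTPRC) and 10.20 (KLK3), against 11.18 or more for the hepatocyte markers above the filter.

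No member was called between quercetin and control over the 4 times. The limma test called 0 of 114 probe sets, and the background was the same, with 0% of 27300 probe sets called. A call here means a Benjamini-Hochberg adjusted p under 0.05 over all probe sets tested. At an unadjusted p under 0.05 there were 24 member probe sets (background 5.08%), 20 lower and 4 higher with quercetin. The 20 were 17.5% of the members, against 3.61% of all probe sets tested that were lower at this p, and the 4 were 3.51% against 1.47%. The 24 came to 11 and 10 without the control or the quercetin 2 h array, to 9 without either 24 h array, and to 11 with spike-in class as a block. The effect of this block comes wholly from the contrast between the 2 h arrays, so using it discards their quercetin difference. The median member difference was -0.05 both with it and without the 2 h pair. The lower count therefore cannot tell spike-in signal apart from a quercetin difference at 2 h. With all 8 arrays and no such block, the mean difference was below 0 for 82 of the 114. The share that was lower with quercetin at all 4 times was 22.8% of the members (26 probe sets of 17 genes), against 8.47% of all probe sets, and 3 members (2.63%, against 4.62%) were higher at all 4.

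The 2 h pair carried most of the shift. The median member difference, quercetin minus control on the log2 scale, was -0.30 at 2 h, where 95 of 114 probe sets were lower, and -0.10, 0.04 and -0.08 at 4, 12 and 24 h. The medians of all probe sets tested were -0.06, -0.02, 0.05 and -0.09. After cyclic loess the member medians at 12 and 24 h were -0.07 and 0.02, so their signs turned, while those at 2 and 4 h stayed below 0 under all 4 scalings. The 2 h pair is also the only pair whose arrays lay in different spike-in classes and differed widely in 18S signal, and the part of this in the 2 h differences was not tested.

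The roles moved unequally at 2 h. SR proteins had the lowest median, -0.48 over 30 probe sets, of which 27 were lower. SR-related proteins followed with -0.29 over 33, core spliceosome proteins with -0.25 over 22, and hnRNP proteins with the helicase DDX5 with -0.15 over 20. The kinases had a median of 0.34 over 9 probe sets, of which 4 were lower. The lower ones were all those of SRPK1 and SRPK2, and every tested CLK probe set was higher. By 24 h the kinase median was -0.12 and that of the SR proteins -0.15. These role medians compare single arrays and carry no test.

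**Figure D1:**
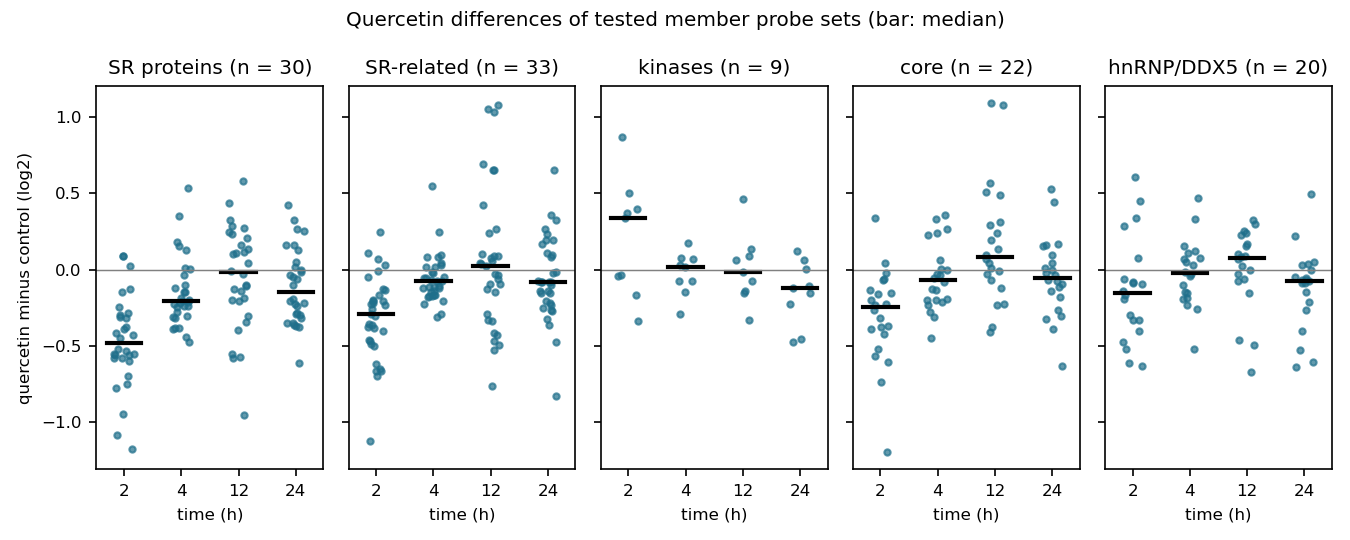
Quercetin minus control (log2) on the vertical axis at 2, 4, 12 and 24 h for the 114 tested member probe sets, in a panel for each role; each point is 1 probe set and each bar the median. At 2 h the median of the SR proteins was -0.48 and that of the kinases 0.34, with the CLK probe sets higher and the SRPK probe sets lower.

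The largest differences of 1 sign at all 4 times were lower with quercetin. SRSF10 204299_at reads SRSF10, an SR protein that acts as a repressor of splicing after heat shock, and at 2, 4, 12 and 24 h it gave 9.52, 8.93, 9.79 and 9.95 in the control arrays and 8.44, 8.48, 9.60 and 9.74 in the quercetin arrays. Its quercetin difference was -1.09, -0.44, -0.20 and -0.21 at the 4 times, a mean of -0.48 ± 0.16 (SE; adjusted p = 0.9064, unadjusted 0.0073). The difference was widest at 2 h, and at 12 and 24 h it was smaller than the change with time. Other tested SRSF10 probe sets had mean differences closer to 0, up to 0.01 for 210178_x_at. That probe set was higher with quercetin at 12 h (9.28 against 9.12) and at 24 h (9.90 against 9.48). HNRNPC 235500_at, the least bright tested probe set of the abundant pre-mRNA binding protein HNRNPC, gave 9.04, 9.16, 9.04 and 8.77 in the control arrays and 8.52, 9.06, 8.58 and 8.16 in the quercetin arrays, with a mean difference of -0.42 ± 0.14 (unadjusted p = 0.0075). The other 5 tested HNRNPC probe sets were closer to 0, up to -0.02. LUC7L3 241792_x_at reads LUC7L3, a relative of a yeast U1 ribonucleoprotein component, and gave 8.70, 8.62, 9.29 and 8.63 in the control arrays and 8.48, 8.46, 8.53 and 8.31 in the quercetin arrays, with a mean difference of -0.37 ± 0.14. Another LUC7L3 probe set, 229193_at, had a mean difference of 0.35.

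SNRNP200 232931_at, the sole usable probe set of the helicase that unwinds the U4 and U6 RNAs, gave 8.02, 7.55, 7.96 and 7.09 in the control arrays and 7.45, 7.52, 7.55 and 6.70 in the quercetin arrays, with a mean quercetin difference of -0.35 ± 0.14. Its mean of 7.48 is just above the filter. SF3A1 227516_at, for a subunit of the U2 ribonucleoprotein, gave 7.63, 7.60, 7.94 and 8.60 in the control arrays and 7.32, 7.41, 7.71 and 7.97 in the quercetin arrays, with a mean difference of -0.34 ± 0.14. In both, the quercetin array was below its control at every time, yet adjusted p was 0.9064 for these and for the other 3 probe sets above.

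HNRNPH1, a protein that binds runs of guanines near splice sites, was higher with quercetin at all 4 times by 2 of its 3 tested probe sets. HNRNPH1 213619_at, the brightest hnRNP member, gave 14.18, 14.32, 13.91 and 14.25 in the control arrays and 14.52, 14.44, 14.08 and 14.28 in the quercetin arrays, a mean difference of 0.16 ± 0.06 (unadjusted p = 0.0179, adjusted 0.9064). HNRNPH1 201031_s_at gave 12.93, 12.96, 12.19 and 12.98 in the control arrays and 13.38, 13.02, 12.52 and 13.03 in the quercetin arrays, a mean difference of 0.22 ± 0.09 (unadjusted p = 0.0193). The third, 213470_s_at, gave 8.85, 8.86, 8.71 and 8.48 in the control arrays and 8.45, 8.34, 8.79 and 8.70 in the quercetin arrays and differed by -0.15 ± 0.15. SON 213538_at, from the gene of a large protein of nuclear speckles, where splicing factors are stored, was also higher at each time. It gave 9.45, 9.17, 9.27 and 9.45 in the control arrays and 9.47, 9.42, 9.37 and 9.55 in the quercetin arrays, and its mean difference was 0.12 ± 0.13.

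Single-time differences of at least 1 (log2) fell at 2 h and 12 h. At 2 h, 4 members were lower by this much, against 0.714% of all probe sets tested. PRPF38B 230270_at, of a relative of the yeast spliceosome protein PRP38, gave 10.87, 9.47, 9.72 and 9.59 in the control arrays and 9.68, 9.80, 9.82 and 9.45 in the quercetin arrays. Its control 2 h array stood above the other 7, and the 2 h difference was -1.19. SRSF6 206108_s_at, an SR protein gene, gave 9.86, 9.88, 9.09 and 9.03 in the control arrays and 8.68, 9.41, 9.13 and 8.81 in the quercetin arrays, a 2 h difference of -1.18. The others were TRA2A 213593_s_at (-1.12), for an SR-related activator of exons, and SRSF10 204299_at (-1.09). No kinase was lower by 1, and CLK4 210346_s_at was higher by 0.87 at 2 h. No member was higher by 1 at 2 h (background 0.308%). At 4 h none differed by 1 in either direction (background 0.0623% higher and 0.033% lower), and at 24 h none did (background 0.242% and 0.253%).

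At 12 h, 5 member probe sets were higher by at least 1 with quercetin, against 0.689% of all probe sets tested, and none was lower (background 0.0476%). They read SF3B1, the U2 subunit that holds the branch point, RBM39, an SR-like coactivator, SON and LUC7L3. SF3B1 214305_s_at gave 11.11, 11.06, 10.05 and 11.19 in the control arrays and 11.16, 11.03, 11.14 and 11.63 in the quercetin arrays, and SF3B1 201070_x_at gave 10.83, 10.92, 9.71 and 10.81 in the control arrays and 10.77, 10.61, 10.79 and 11.34 in the quercetin arrays. In both, the control 12 h array was the lowest of the 8, and the other 7 lay at 10.61 or above. The remaining 3 tested SF3B1 probe sets differed by -0.07 to -0.01 at 12 h, and the brightest of them, 211185_s_at, gave 12.89, 12.69, 12.71 and 13.08 in the control arrays and 12.83, 12.49, 12.64 and 13.01 in the quercetin arrays. RBM39 227223_at gave 11.57, 11.59, 10.34 and 11.52 in the control arrays and 11.10, 11.28, 11.42 and 11.85 in the quercetin arrays, again with a single low array, while the other 3 RBM39 probe sets differed by -0.09 to 0.08. The brightest RBM39 probe set, 207941_s_at, gave 12.62, 12.08, 12.57 and 12.96 in the control arrays and 12.23, 11.91, 12.48 and 12.81 in the quercetin arrays. SON 201085_s_at read 8.86 without and 9.91 with quercetin at 12 h, and the other 4 SON probe sets differed by -0.06 to 0.10. LUC7L3 229193_at gave 8.63, 8.75, 8.16 and 8.05 in the control arrays and 8.41, 8.69, 9.19 and 8.70 in the quercetin arrays, where the control 24 h array was lower still, and the other 5 LUC7L3 probe sets differed by -0.76 to 0.65. Within the 12 h pair, 3′ minus 5′ values were higher in control. ACTB gave 1.40 in control against 0.88 with quercetin, and GAPDH 0.61 against 0.48. Other arrays came near the control values, with 1.36 and 1.39 at 24 h for ACTB and 0.61 in both 4 h arrays for GAPDH. The part of RNA integrity in the quercetin differences at 12 h was not tested.

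**Figure D2:**
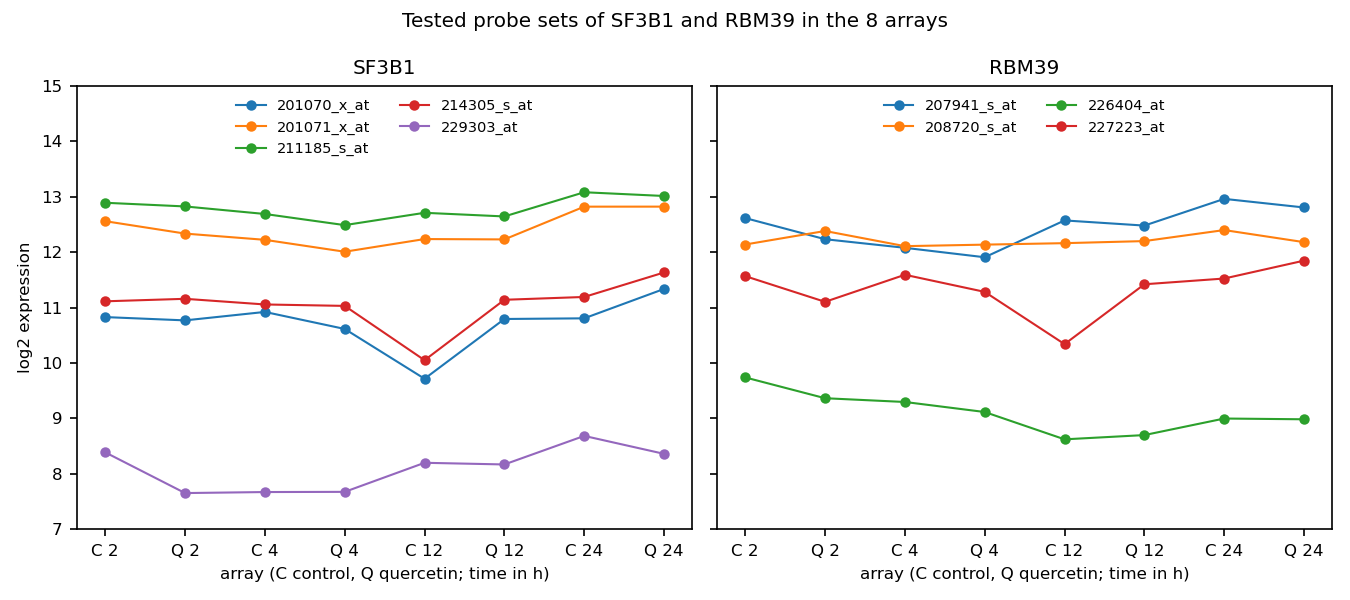
Log2 expression in each of the 8 arrays (C control, Q quercetin, with the time in h) for the tested probe sets of SF3B1 and RBM39, 1 line per probe set. SF3B1 214305_s_at and 201070_x_at and RBM39 227223_at had their lowest value in the control 12 h array, while the other probe sets of these genes differed by -0.09 to 0.08 between the 12 h arrays.

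RBM39 227223_at was also the only member called for a quercetin difference that differed between late (12 and 24 h) and early (2 and 4 h) times, 1 of 114 (0.877%) against 0.516% of all probe sets. Its differences were -0.46, -0.31, 1.08 and 0.32, and late minus early was 1.09 ± 0.24 (SE; limma interaction, adjusted p = 0.0061, range 5.529e-06 to 0.5084 over 21 alternatives). The call was lost in 11 of the 21, and without the 12 h pair the value was 0.71. Without either 2 h array it was 1.01, which also lost the call. None of the other 3 RBM39 probe sets was called. Within genes, limma's diffSplice found no gene whose probe sets differed in their quercetin response, 0 of 30 with 1 at an unadjusted p under 0.05, and of 5583 genes 0% were called, with 3.42% at the unadjusted p. That 1 was SF3B1 (unadjusted p = 0.0468), from 0.39 for 214305_s_at to -0.27 for 229303_at, which gave 8.39, 7.67, 8.20 and 8.68 in the control arrays and 7.65, 7.67, 8.17 and 8.36 in the quercetin arrays.

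The other wide pairs were not called either. LUC7L3 had the widest, 0.72 apart, with a mean quercetin difference of 0.35 for 229193_at and -0.37 for 241792_x_at. SF3A1 201357_s_at gave 8.81, 8.35, 8.38 and 8.67 in the control arrays and 8.58, 8.61, 8.95 and 8.83 in the quercetin arrays, a mean quercetin difference of 0.19 against -0.34 for 227516_at. PNISR 225507_at gave 9.21, 9.32, 8.61 and 9.52 in the control arrays and 9.32, 9.20, 9.26 and 9.44 in the quercetin arrays, a difference of 0.14, and PNISR 212179_at gave 8.10, 7.74, 8.30 and 8.83 in the control arrays and 8.17, 7.60, 7.77 and 8.0 in the quercetin arrays, a difference of -0.36. PNISR encodes a protein rich in serine and arginine that binds the speckle protein PNN. In SRPK2, 203181_x_at differed by 0.05 and 203182_s_at by -0.25.

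More member probe sets were called for time than for quercetin. The 2 arms of a time stood in for replicates, so the tests measure how far control and quercetin changed alike and not the spread between cultures. In RNA from whole cultures, fewer cells that express a gene and less of its RNA per cell cannot be told apart. From 4 to 24 h the arrays shared high spike-in signal, while 18S signal went from 11.52 and 11.62 to 9.82 and 9.16 and the ACTB 3′ minus 5′ difference from 1.12 and 1.17 to 1.36 and 1.39, and the part of these in the time changes was not tested. Between these times 49 of 114 member probe sets were called (43%), 43 higher and 6 lower at 24 h. The background was 35% of all probe sets tested, 25.9% higher and 9.09% lower. From 2 to 24 h, 23 were called (20.2%, background 16.8%), 20 higher (background 12.7%) and 3 lower (background 4.15%). Members are brighter than the average, with a median level of 9.69 against 8.75. With the filter raised to the 75th percentile, 42 of 82 member probe sets were called from 4 to 24 h, and the background was 49.7%. Both 24 h arrays lay above the other 6 for 33 of the 114 (28.9%, background 25.6%) and below them for 5 (background 11.8%). Both 4 h arrays lay below the other 6 for 27 (23.7%, background 14.5%).

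Which of these changes were called, and their size, depended on the scaling. From 4 to 24 h the median member change was 0.32 (0.12 over all probe sets tested), 0.42 after median centring, 0.039 after cyclic loess and 0.0046 after quantile normalization. Median centring moved the median of all probe sets to 0.22. After quantile normalization 21 members rose and 15 fell, with backgrounds of 13.2% and 12.5%. Of the 43 that rose on the deposited values, 20 probe sets of 15 genes rose under all 4 scalings (background 12.7%), and 4 turned sign in at least 1. Of the 6 that fell, 3 did so under all 4 (background 5.67%). From 2 to 24 h, 6 rose and 2 fell under all 4 (background 6.65% and 2.85%). Between these times 12 rose and 8 fell after cyclic loess (background 8.44% and 6.25%). After quantile normalization 6 rose and 8 fell (background 6.75% and 5.59%). Calls from 4 to 24 h came to 26 and 31 without the control or the quercetin 4 h array, and to 23 and 30 without the control or the quercetin 24 h array. Those from 2 to 24 h came to 10 without the quercetin 2 h array and to 3 and 9 without the control or the quercetin 24 h array.

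**Figure D3:**
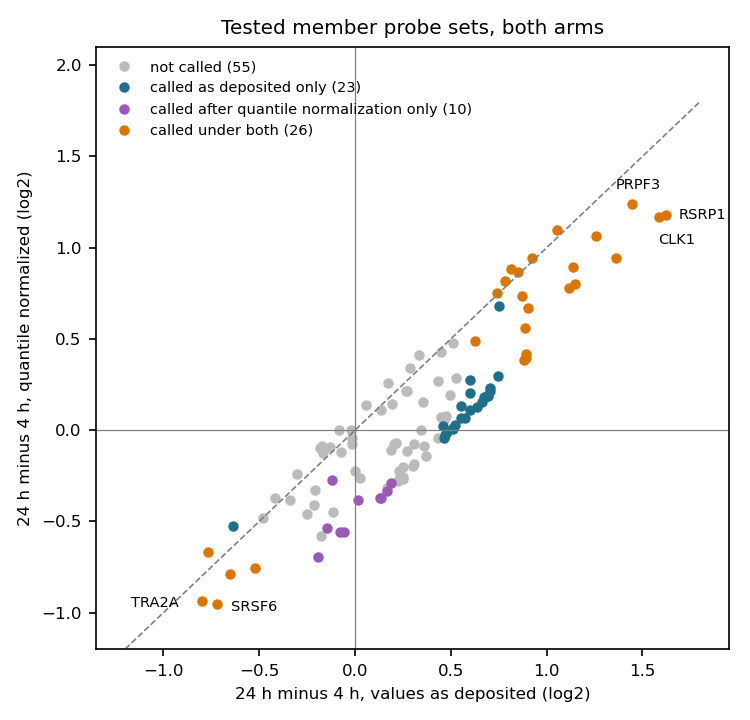
Change from 4 to 24 h (log2, both arms) of the 114 tested member probe sets on the deposited values (horizontal) and after quantile normalization (vertical), coloured by where the change was called; the dashed line marks equal values. Most points lie below the line, 26 were called under both, 23 as deposited only and 10 after quantile normalization only.

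RSRP1, which encodes a nuclear protein rich in arginine and serine, had the largest rise of the members. RSRP1 209007_s_at read 9.32, 9.68, 10.70 and 11.58 in the control arrays and 8.67, 9.76, 10.38 and 11.11 in the quercetin arrays at 2, 4, 12 and 24 h. Both 24 h arrays stood above the 12 h arrays and those above all earlier ones, and both 2 h arrays were the lowest. The change from 2 to 24 h was 2.35 ± 0.19 (SE; limma, adjusted p = 5.879e-06, range 3.633e-08 to 0.0007961 over 21 alternatives), from 2 to 12 h 1.54 ± 0.19 (adjusted p = 0.0022) and from 4 to 24 h 1.63 ± 0.19 (adjusted p = 4.544e-05). It was called from 2 to 24 h in all 21 alternatives that keep single probe sets. The dim RSRP1 probe set, 209006_s_at, was also higher at 24 h, with 7.50 and 7.21 against 6.06 to 6.49 at 2 h, and was not tested.

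The CLK kinases phosphorylate SR proteins in the nucleus, and retained introns in CLK1 and CLK4 RNA are spliced when CLK activity falls. CLK1 214683_s_at gave 9.65, 9.51, 10.23 and 11 in the control arrays and 10.16, 9.21, 9.89 and 10.89 in the quercetin arrays, and both 24 h arrays lay above the other 6. It rose by 1.58 ± 0.21 from 4 to 24 h (adjusted p = 8.471e-05) and by 1.04 ± 0.21 from 2 to 24 h (adjusted p = 0.0037, range 0.0007042 to 0.0637 over 21 alternatives). The latter was not called after quantile normalization (0.73) or without the control 24 h array (1.01). CLK4 210346_s_at gave 8.41, 8.43, 9.18 and 9.94 in the control arrays and 9.28, 8.45, 9.04 and 9.46 in the quercetin arrays, again with both 24 h arrays highest, and rose by 1.26 ± 0.25 from 4 to 24 h (adjusted p = 0.0017, range 0.0001895 to 0.0605 over 21 alternatives). Without the control 24 h array that value was 0.89 and not called. The dim CLK4 probe sets were not tested and went different ways from 4 to 24 h. In the control arrays 241403_at went from 6.67 to 5.93, 228751_at from 6.51 to 7.39 and 1568836_at from 5.28 to 5.37. In the quercetin arrays they went from 6.89 to 6.46, 6.28 to 6.68 and 5.56 to 5.60. The 2 h quercetin arrays of both genes were above their controls. CLK2 203229_s_at was not called (0.46 from 4 to 24 h), and CLK3 202140_s_at was called on the deposited values (0.60) but not under all 4 scalings.

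The cytoplasmic kinases were uneven. SRPK2 203182_s_at gave 8.56, 8.50, 9.03 and 9.53 in the control arrays and 8.22, 8.36, 8.96 and 9.08 in the quercetin arrays and rose by 0.91 ± 0.19 from 2 to 24 h (adjusted p = 0.0050, range 0.0034 to 0.0944 over 20 alternatives). It was not called without the control 24 h array, at 0.78. SRPK2 203181_x_at gave 8.87, 8.93, 8.94 and 9.57 in the control arrays and 8.70, 9.0, 9.40 and 9.42 in the quercetin arrays, and its change was 0.71 ± 0.20 (adjusted p = 0.0252). It was not called after quantile normalization, nor without the quercetin 2 h or either 24 h array. Of the 9 kinase probe sets, 5 were called higher and 1 lower from 4 to 24 h, 3 and 0 of them under all 4 scalings. For this and the other roles, the background was 25.9% higher and 9.09% lower, and 12.7% and 5.67% under all 4 scalings.

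Among core proteins, PRPF3 202251_at, of a U4/U6 component, gave 9.13, 8.46, 9.26 and 10.01 in the control arrays and 8.61, 8.40, 9.31 and 9.74 in the quercetin arrays. It rose by 1.45 ± 0.20 from 4 to 24 h (adjusted p = 0.0001114) and by 1.01 ± 0.20 from 2 to 24 h (adjusted p = 0.0034), with both 24 h arrays above all others. The latter was lost without the quercetin 2 h or the control 24 h array, at 0.79 and 0.96. The SF3A1 probe set 227516_at, printed above, rose by 0.81 ± 0.19 from 2 to 24 h (adjusted p = 0.0101) under all 4 scalings, but was not called without the quercetin 2 h or the control 24 h array (0.83 and 0.62). Of the 22 core probe sets (backgrounds as for the kinases), 9 were called higher and 1 lower from 4 to 24 h, 3 and 0 of them under all 4 scalings.

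SR-related regulators held 13 rises (background 25.9%) and 1 fall (background 9.09%) among 33 probe sets from 4 to 24 h, 7 and 1 under all 4 scalings (background 12.7% and 5.67%). PNISR 212176_at gave 10.39, 9.47, 10.34 and 10.82 in the control arrays and 10.13, 9.36, 9.87 and 10.74 in the quercetin arrays, lowest at 4 h and highest at 24 h in both arms, and rose by 1.36 ± 0.17 (adjusted p = 7.309e-05). The PNISR probe sets disagreed (diffSplice, adjusted p = 0.0001902). PNISR 226412_at changed by -0.48 (limma, adjusted p = 0.0543) and 225507_at by 0.21, neither called. PNISR 212179_at (0.74) and 212177_at (0.63) were called higher, the latter not under all 4 scalings. LUC7L3 220044_x_at gave 11.03, 10.91, 11.33 and 11.69 in the control arrays and 10.36, 10.62, 11.42 and 11.62 in the quercetin arrays, and rose by 0.96 ± 0.18 from 2 to 24 h (adjusted p = 0.0024), called in every alternative run for it. LUC7L3 208835_s_at gave 9.56, 9.23, 9.86 and 10.16 in the control arrays and 9.07, 9.06, 10.52 and 10.36 in the quercetin arrays, where the quercetin 12 h array was the highest of the 8, and rose by 0.94 ± 0.23 from 2 to 24 h (adjusted p = 0.0122). The last was not called after quantile normalization, nor without the quercetin 2 h, control 24 h or quercetin 24 h array (0.59, 1.04 and 0.85).

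SR proteins had 11 rises (background 25.9%) and 2 falls (background 9.09%) among 30 probe sets from 4 to 24 h, 6 and 1 under all 4 scalings (background 12.7% and 5.67%). SRSF4 201696_at gave 11.44, 11.36, 11.49 and 12.26 in the control arrays and 10.88, 11.17, 11.48 and 12.04 in the quercetin arrays and rose by 0.99 ± 0.15 from 2 to 24 h (adjusted p = 0.0008346), called in all 21 alternatives. SRSF10 supplied 4 of the 20 rises that held under all 4 scalings, while its brightest probe set, 213594_x_at, was not called. The latter changed by 0.23 from 4 to 24 h (limma, adjusted p = 0.3219) and by -0.25 after quantile normalization. SRSF10 204299_at, whose values stand above, rose by 1.14 ± 0.22 from 4 to 24 h, and 225348_at by 1.05 ± 0.19, 206095_s_at by 1.15 ± 0.20 and 210178_x_at by 0.90 ± 0.21, the last not called without the quercetin 4 h or the quercetin 24 h array. The highest SR protein member by level, SRSF3 208672_s_at, gave 13.61, 13.38, 13.30 and 13.57 in the control arrays and 13.37, 13.18, 13.63 and 13.53 in the quercetin arrays and was not called. The hnRNP proteins and DDX5 had 5 rises and 1 fall among 20 probe sets, 1 and 1 under all 4 scalings.

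**Figure D4:**
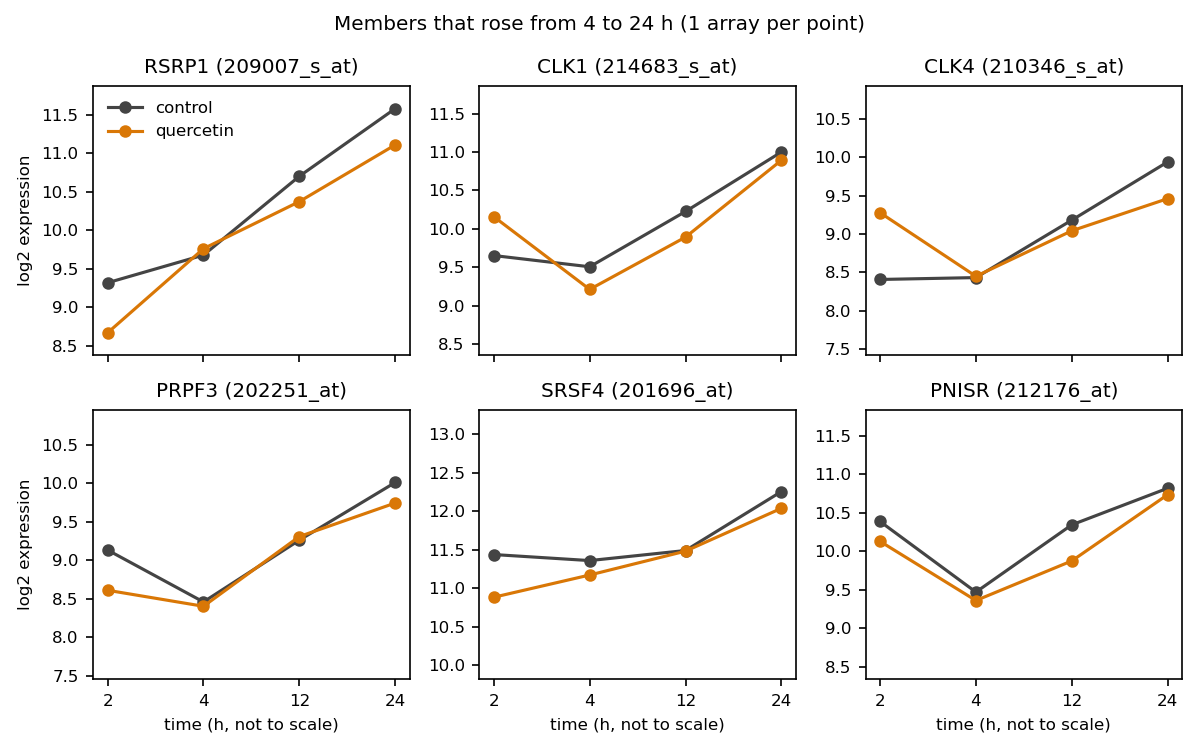
Log2 expression at 2, 4, 12 and 24 h (horizontal axis not to scale) of 6 member probe sets, with control arrays in grey and quercetin arrays in orange and 1 array per point. In all 6 both 24 h arrays lay above the other 6 arrays, and RSRP1 climbed from 9.32 and 8.67 at 2 h to 11.58 and 11.11 at 24 h.

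The promoters of the 15 genes with a rise from 4 to 24 h under all 4 scalings were searched. That rise was the rule that picked these genes. Of them 13 have an entry in the RefSeq promoter table (GRCh38.p14), which runs from 250 bases before to 50 after a listed start of a gene. The most upstream listed start of each gene was taken. For SRPK2, on the minus strand, this window (105389342 to 105389641) lies inside the annotated span of the gene, 105114740 to 105399357. The promoters of RSRP1, CLK4 and PNISR are shown, RSRP1 for the largest rise and the others for holding the most motifs in a kinase and a regulator gene. Capitals mark matches to a searched motif on either strand.
RSRP1, chr1:25338205-25338504, minus strand: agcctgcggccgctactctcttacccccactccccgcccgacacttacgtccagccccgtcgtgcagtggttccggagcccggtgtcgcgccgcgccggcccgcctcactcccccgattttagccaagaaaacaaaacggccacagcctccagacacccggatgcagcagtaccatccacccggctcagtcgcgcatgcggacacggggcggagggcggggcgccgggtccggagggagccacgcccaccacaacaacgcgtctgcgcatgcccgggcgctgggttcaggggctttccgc
CLK4, chr5:178627001-178627300, minus strand: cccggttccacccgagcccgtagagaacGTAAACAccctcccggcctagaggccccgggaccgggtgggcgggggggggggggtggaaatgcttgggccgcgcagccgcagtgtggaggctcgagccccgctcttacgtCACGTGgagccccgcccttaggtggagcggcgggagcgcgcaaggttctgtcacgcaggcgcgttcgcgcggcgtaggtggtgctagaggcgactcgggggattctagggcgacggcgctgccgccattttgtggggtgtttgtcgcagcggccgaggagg
PNISR, chr6:99425259-99425558, minus strand: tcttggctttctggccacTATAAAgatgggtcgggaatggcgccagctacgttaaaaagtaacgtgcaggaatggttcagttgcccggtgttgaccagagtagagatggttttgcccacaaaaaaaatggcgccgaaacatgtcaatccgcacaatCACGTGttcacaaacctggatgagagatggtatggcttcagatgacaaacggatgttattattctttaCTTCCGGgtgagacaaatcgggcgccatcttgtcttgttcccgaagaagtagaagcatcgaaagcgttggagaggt
The E-box CACGTG, a palindrome counted once, was in 3 of the 13 (CLK4, PNISR and SF3B1) and in 7.41% of 27305 promoters. The FOXO site GTAAACA was in 2 (CLK4 and SRPK2), against 3.44%, and the ETS site CCGGAAG in 3, against 10.6%. The CCAAT box was in 2 (35.7% of all), the TATA box TATAAA in 1 (12% of all) and the cyclic AMP response element TGACGTCA in 0 (1.97% of all). RSRP1 held none of the 6, which says only that these letters are not in this window. In all 34 member promoters of the table, the 13 included, the E-box was in 5, the FOXO site in 3 and the ETS site in 7. The CCAAT box was in 10 of these 34 and the TATA box in 3. Matches are descriptions and not binding sites, and a link between them and the rise was not tested.

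Falls from 4 to 24 h were fewer. SRSF1 239384_at gave 7.69, 7.69, 7.61 and 7.15 in the control arrays and 7.77, 7.87, 7.27 and 6.87 in the quercetin arrays, with both 24 h arrays below the other 6, and changed by -0.77 ± 0.20 from 4 to 24 h (adjusted p = 0.0075) and -0.72 ± 0.20 from 2 to 24 h (adjusted p = 0.0215). It was not called from 4 to 24 h without the quercetin 4 h or the quercetin 24 h array (-0.59 and -0.64), nor from 2 to 24 h without the quercetin 2 h or either 24 h array. TRA2A 229574_at gave 9.12, 9.19, 9.43 and 8.45 in the control arrays and 8.42, 9.23, 8.94 and 8.37 in the quercetin arrays, a change of -0.80 ± 0.21 (adjusted p = 0.0088), which held under all 4 scalings but not without the quercetin 4 h or the control 24 h array. HNRNPC 235500_at, whose values stand above, changed by -0.65 ± 0.19 (adjusted p = 0.0172) and held under all 4 scalings, but not without the quercetin 4 h or either 24 h array. SRSF6 206108_s_at changed by -0.72 ± 0.24 (adjusted p = 0.0312) and SNRNP200 232931_at by -0.64 ± 0.19 (adjusted p = 0.0184), and neither held under all 4. SRSF6 was not called without any 1 of the 4 arrays compared, nor SNRNP200 without the quercetin 4 h or either 24 h array. Apart from the sole probe set of SNRNP200, none of the 5 was the brightest of its gene.

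Fewer members were called from 2 or 4 h to 12 h than to 24 h. From 4 to 12 h, 19 members were called (16.7%, background 3.8%). Of these 17 were higher (background 3.34%) and 2 lower (background 0.462%), 12 and 1 of them under all 4 scalings (background 2.08% and 0.227%). From 2 to 12 h, 7 were called (6.14%, background 1.16%), 3 higher (background 0.667%) and 4 lower (background 0.495%), 3 and 3 under all 4 scalings (background 0.571% and 0.256%). Both 12 h arrays lay above the other 6 for 8 of the 114 (background 3.23%) and below them for 8 (background 6.94%). The 12 h arrays had low spike-in signal and the 4 h arrays high, and with this class as a block no member was called from 4 to 12 h and 2 were from 2 to 12 h. Here and below, this block rests on the 2 h pair alone, 1 control against 1 quercetin array. A call lost with it therefore cannot separate spike-in class from time. Without the control 4 h, quercetin 4 h or quercetin 12 h array the calls from 4 to 12 h came to 0, 4 and 3. Those from 2 to 12 h came to 13, 2 and 11 without the control 2 h, quercetin 2 h or quercetin 12 h array. SRSF1, the founding SR protein, was higher at 12 h by 4 of its 7 tested probe sets, whose 12 h arrays both lay above the other 6. Among the rest, 226419_s_at changed by -0.58 from 2 to 12 h and 239384_at by -0.34 from 4 to 12 h, neither called. SRSF1 208863_s_at gave 10.97, 10.41, 11.30 and 10.71 in the control arrays and 10.45, 10.09, 11.57 and 10.66 in the quercetin arrays, a rise of 1.19 ± 0.19 from 4 to 12 h (adjusted p = 0.0079) followed by a change of -0.75 ± 0.19 to 24 h (adjusted p = 0.0132). The rise was not called without the control 4 h, quercetin 4 h or quercetin 12 h array, nor the later change without the quercetin 12 h or either 24 h array. SRSF1 227164_at gave 9.44, 9.42, 10.11 and 10.03 in the control arrays and 8.66, 9.04, 10.32 and 9.42 in the quercetin arrays, a rise of 1.17 ± 0.22 from 2 to 12 h (adjusted p = 0.0187). PRPF38B 218040_at rose from 2 to 12 h by 1.04 ± 0.20 (adjusted p = 0.0207), with 7.86, 7.67, 8.64 and 8.03 in the control arrays and 7.48, 7.91, 8.78 and 8.13 in the quercetin arrays. With spike-in class as a block both values were lower, 0.91 and 0.78, and not called. Neither was called without the quercetin 2 h or the quercetin 12 h array, nor PRPF38B without the control 12 h array.

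Probe sets of SRSF10 and SRSF11 rose from 4 to 12 h. SRSF10 225348_at gave 8.28, 7.34, 8.64 and 8.49 in the control arrays and 7.90, 7.30, 8.33 and 8.25 in the quercetin arrays, a rise of 1.17 ± 0.19 (adjusted p = 0.0088). SRSF10 206095_s_at gave 10.04, 9.11, 10.18 and 10.30 in the control arrays and 9.44, 9.24, 10.31 and 10.35 in the quercetin arrays, a rise of 1.07 ± 0.20. SRSF11 200685_at gave 7.72, 7.24, 8.89 and 8.07 in the control arrays and 7.57, 7.25, 7.93 and 8.05 in the quercetin arrays, with its highest value in the control 12 h array, a rise of 1.17 ± 0.23 (adjusted p = 0.0195). The rises of both SRSF10 probe sets were not called without the control 4 h or the quercetin 12 h array, nor that of SRSF11 without the control 4 h or the control 12 h array (0.72). The other 2 tested SRSF11 probe sets were not called, and 213742_at gave 9.83, 9.50, 8.54 and 9.33 in the control arrays and 9.27, 9.28, 8.98 and 9.50 in the quercetin arrays, a change of -0.63 ± 0.22 (adjusted p = 0.1307). The SRSF11 probe sets differed from 4 to 12 h by diffSplice (adjusted p = 0.0210).

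SRSF5, an SR protein gene that responds early to insulin in liver cells, fell by 12 h. SRSF5 212266_s_at gave 12.37, 11.54, 11.37 and 12.20 in the control arrays and 12.06, 11.29, 11.27 and 12.01 in the quercetin arrays, a change of -0.90 ± 0.13 from 2 to 12 h (adjusted p = 0.0065) and of 0.79 ± 0.13 from 12 to 24 h (adjusted p = 0.0016). SRSF5 203380_x_at gave 11.66, 10.89, 10.81 and 11.33 in the control arrays and 11.37, 10.79, 10.41 and 10.98 in the quercetin arrays and changed by -0.90 ± 0.15 (adjusted p = 0.0107). HNRNPH1 201031_s_at and 213619_at, printed above, had both 12 h arrays below the other 6, and 201031_s_at changed by -0.80 ± 0.12 from 2 to 12 h (adjusted p = 0.0071). RBM39 226404_at gave 9.74, 9.29, 8.62 and 9.0 in the control arrays and 9.36, 9.11, 8.70 and 8.98 in the quercetin arrays, a change of -0.89 ± 0.19 (adjusted p = 0.0347). With the spike-in class as a block, SRSF5 212266_s_at kept its call from 2 to 12 h, and the other 3 probe sets that fell lost theirs. These 3 were also not called without the quercetin 2 h array. RBM39 226404_at was called in 7 of 20 alternatives, and not after median centring, with array weights or without any 1 array other than the quercetin 12 h array.

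From 12 to 24 h, 30 members were called (26.3%, background 17.7%), 26 higher (background 13.3%) and 4 lower (background 4.43%). The direction depended on the scaling. After cyclic loess 6 were called higher and 13 lower, and after quantile normalization 3 and 13. The median member change was 0.18 on the deposited values, -0.02 after cyclic loess and -0.07 after quantile normalization. Over all probe sets tested it was 0.12, 0.0043 and -0.0079. Under all 4 scalings 3 of the rises and 3 of the falls held (background 4.76% and 3.26%), and 3 rises turned sign in at least 1. With the spike-in class as a block 3 were, and without the control 12 h array 9, either 4 h array 19, the control 24 h array 1 and the quercetin 24 h array 2. SRSF7 213649_at gave 9.86, 9.81, 8.98 and 10.08 in the control arrays and 9.29, 9.66, 9.56 and 10.35 in the quercetin arrays, a rise of 0.94 ± 0.23. It was not called after quantile normalization (0.71), without the control 12 h array (0.57) or without either 24 h array. PTBP1 236819_at, a probe set near the filter for a repressor of exons, gave 7.13, 7.65, 7.01 and 7.73 in the control arrays and 7.74, 7.63, 7.25 and 8.22 in the quercetin arrays, a rise of 0.84 ± 0.20, which held under all 4 scalings but not without any 1 of the 4 arrays compared. The SF3B1 probe sets 214305_s_at and 201070_x_at rose by 0.82 and 0.82, and without the control 12 h array, their low one, by 0.35 and 0.30, no longer called. Neither held under all 4 scalings. From 2 to 4 h no member was called by limma, against a background of 0.011%, and 25 had an unadjusted p under 0.05 (background 13.7%). Over all 4 times the F test called 58 (50.9%, background 29.3%), and 30, 33, 25 and 26 without the control 4 h, quercetin 4 h, control 24 h or quercetin 24 h array. It called 41 after cyclic loess (background 22.4%) and 42 after quantile normalization (background 21.2%).

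Probe sets of the same gene disagreed over time. From 2 to 24 h limma's diffSplice called 5 of 30 genes, SRSF4, U2AF1, SRSF1, LUC7L3 and PRPF38B (16.7%, background 12.5% of 5583 genes), and from 4 to 24 h it called 8, PNISR, HNRNPC, SRPK1, LUC7L3, SRSF1, SRSF4, U2AF1 and HNRNPA1 (26.7%, background 25.8%), so the shares lay near the background. From 2 to 12 h it called SRSF1 (1 of 30, 3.33%, background 0.107%), from 4 to 12 h SRSF11 and SRSF1 (6.67%, background 1.07%) and from 12 to 24 h U2AF2 (3.33%, background 8.99%). With spike-in class as a block these 3 counts were 0. The count from 2 to 24 h came to 3 without the control 2 h array or either 4 h array, 2 without the quercetin 2 h array and 0 and 1 without the control or the quercetin 24 h array. That from 4 to 24 h came to 2 without either 4 h array and 3 without either 24 h array, and that from 4 to 12 h to 0 without either 4 h array. Genes with probe sets called in both directions were SRSF1 and U2AF1 from 2 to 24 h and HNRNPC, SRPK1 and SRSF1 from 4 to 24 h, against 1.43% and 4.17% of all genes.

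SRSF4 had the smallest p from 2 to 24 h (adjusted p = 0.0046). SRSF4 201696_at, printed above, rose by 0.99, while 242837_at gave 9.86, 9.32, 9.35 and 9.04 in the control arrays and 9.30, 9.09, 9.22 and 9.37 in the quercetin arrays, a change of -0.37 ± 0.21 that was not called. U2AF1 encodes the small subunit of the factor that reads the 3′ splice site. U2AF1 202858_at gave 12.12, 11.88, 11.92 and 12.54 in the control arrays and 11.98, 11.68, 12.11 and 12.43 in the quercetin arrays and rose by 0.43 ± 0.13, while U2AF1 232141_at gave 8.52, 7.83, 7.94 and 7.63 in the control arrays and 7.91, 7.59, 7.82 and 7.45 in the quercetin arrays and changed by -0.68 ± 0.19 (adjusted p = 0.0265). After cyclic loess and after quantile normalization neither was called, with 0.21 and 0.21 for 202858_at. Nor was 202858_at called without any 1 of the 2, 4 or 24 h arrays, or 232141_at without the control 2 h or either 24 h array. In SRSF1, 227164_at was 0.68 higher and 239384_at changed by -0.72, so the 2 moved apart by 1.40. The rise of 227164_at was not called after cyclic loess or quantile normalization, nor without the quercetin 2 h, either 4 h or either 24 h array.

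In LUC7L3, 220044_x_at rose by 0.96, while 229193_at differed by -0.14. In PRPF38B the 2 probe sets differed by 0.41 and -0.75, neither called. SRPK1 (adjusted p = 0.0775 from 2 to 24 h, 0.0027 from 4 to 24 h) had probe sets called in opposite directions on the deposited values. SRPK1 202200_s_at, the brightest kinase member, gave 12.16, 11.87, 12 and 12.37 in the control arrays and 12.12, 11.91, 12.07 and 12.37 in the quercetin arrays and rose by 0.48 ± 0.12 from 4 to 24 h, while SRPK1 202199_s_at gave 9.37, 9.55, 9.23 and 9.05 in the control arrays and 9.33, 9.47, 9.07 and 8.93 in the quercetin arrays and changed by -0.52 ± 0.18 (adjusted p = 0.0331). The rise of 202200_s_at was not found after cyclic loess (0.0084) or quantile normalization (-0.0122), where 202199_s_at was still called, and 202199_s_at was not called after median centring. Neither was called without any 1 of the 4 arrays compared. Under cyclic loess and quantile normalization the genes called from 2 to 24 h were PRPF38B, SF3A1, SRSF4 and U2AF2.

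**Figure D5:**
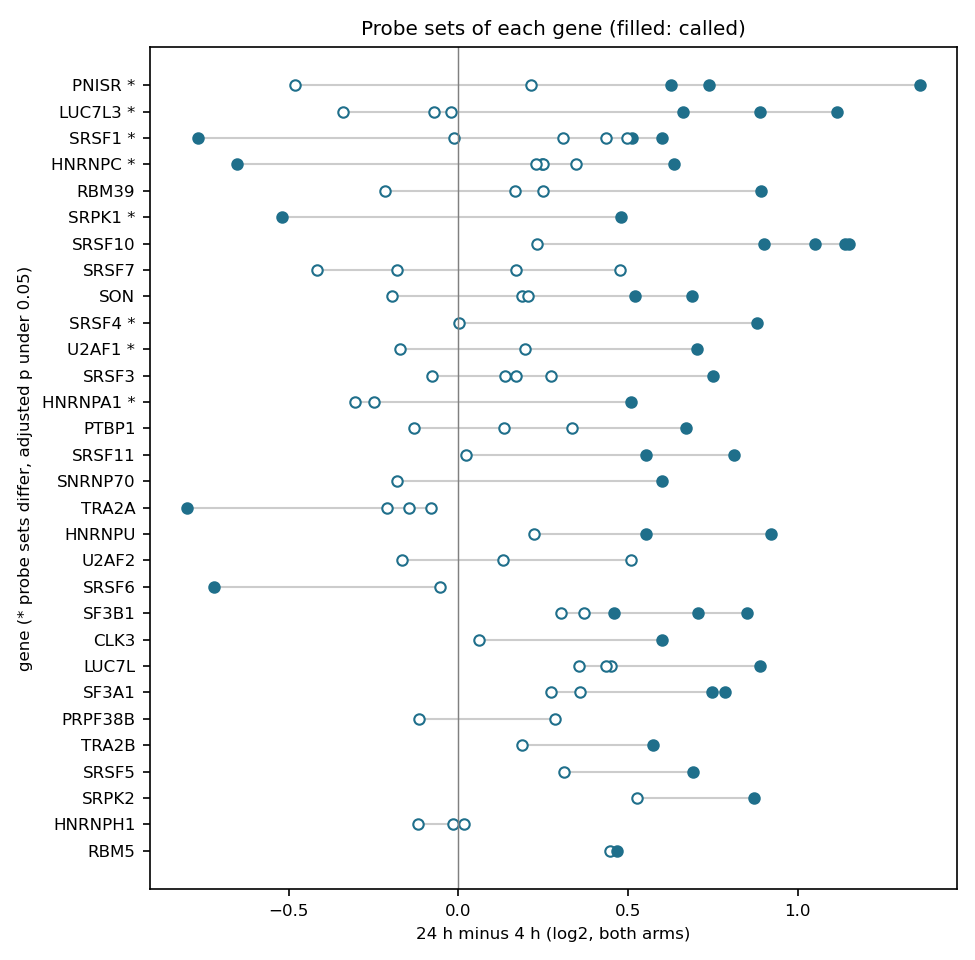
Change from 4 to 24 h (log2, both arms) of each tested probe set in the 30 genes with at least 2; filled points were called, and a star marks genes whose probe sets differed by diffSplice. HNRNPC, SRPK1 and SRSF1 have called probe sets on both sides of 0.

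The other genes of RNA splicing on the array, 133 genes of a list of 141 names with 301 tested probe sets, are given for comparison. Quercetin changed none at an adjusted p under 0.05. From 4 to 24 h 131 rose and 6 fell, 57 and 3 under all 4 scalings (background 25.9% and 9.09%, then 12.7% and 5.67%). From 2 to 24 h 69 rose and 6 fell, 34 and 4 under all 4 (background 12.7% and 4.15%, then 6.65% and 2.85%). The median change from 4 to 24 h was 0.41 in these genes and 0.32 in the members. Among 111 probe sets of other core spliceosome genes 56 rose and 1 fell, and among 139 of other hnRNP proteins and regulators 61 rose and 3 fell.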

How the data were processed

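The authors deposited log2 expression values for 54675 probe sets in 8 arrays, and the submitters' processing notes name RMA. Which version, settings and probe description it ran with was not given in the sources used here. Each array is 1 treatment at 1 time, grouped by its label, and no condition has a replicate, so the number of arrays limits the precision.

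Probe sets were named from the platform annotation. Of all probe sets, 62 are controls, 41091 had 1 symbol, 1801 several and 11721 none listed, and 41037 symbols were updated through the Entrez identifier. Those whose mean over the arrays was above the median, 7.43, were tested (27300).

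The test was limma 3.58.1 in R 4.3.3 (lmFit, then eBayes with the variance trended on level; threshold 0.05 after Benjamini-Hochberg adjustment over all probe sets tested). The model held time and treatment, with 3 residual degrees of freedom. Contrasts between times, the F test, late against early quercetin differences and diffSplice (5583 genes with at least 2 tested probe sets) came from such fits. Differences at 1 time are described by size, with a threshold of 1. The alternatives were other filters, scalings, variance models, array weights, a block for spike-in class, other blocks, 1 value per gene, and leaving out each time pair or array. The spike-in class is the side of the widest gap in spike-in signal on which an array lay.

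Simulated shifts of 0.5, 1 and 1.5 in 200 of 27300 probe sets were recovered for 44.8%, 100% and 100% for quercetin against control (6.86% of calls false), 10.4%, 89.6% and 100% for 24 h against 2 h (11.3%) and 11.9%, 89.6% and 100% for 24 h against 4 h (6.29%). For late against early they were 0%, 55.2% and 97% (11.4%). For differing probe sets from 2 to 24 h, in 200 of 5583 genes, they were 4.48%, 55.2% and 93.9% (4.67%). Noise was drawn independently for each array with no array-wide effect, and the quercetin against control shift was equal at all 4 times. The shares therefore do not cover array-wide differences or quercetin differences that vary with time.

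The members and the lists were chosen with earlier results of these data known. Values in every array are given for the largest quercetin differences of 1 sign at all 4 times, the 8 largest called changes in each direction from 2 to 24 h, up to 5 per direction for other contrasts, the extreme probe sets of the 6 genes with the smallest p in each of 2 diffSplice tests, and the brightest member of each role. Other genes are named with values chosen after they were seen.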

Additional observations from a re-analysis of the deposited data

Results flagged for a closer look

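RBM39 227223_at, a probe set of the SR-like coactivator RBM39, is listed because its quercetin difference differed between late and early times. The late minus early difference was 1.09 on the log2 scale (limma interaction, adjusted p = 0.0061), and the quercetin array was lower at 2 and 4 h and higher at 12 and 24 h. Without the 12 h pair the value was 0.71 and was not called. The other 3 tested RBM39 probe sets were not called.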

How the results depend on the processing

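Quercetin against control gave 0 calls in every alternative run. Calls from 2 to 24 h (23) came to 14 after quantile normalization, 15 genes with 1 probe set per gene, 8 genes with their probe sets averaged, and 3 to 30 with 1 array left out. Those from 4 to 24 h (49) came to 27 and 19 genes by the same 2 summaries, and 23 to 54 with 1 array left out. The F test (58) gave 27 and 10 when the 4 h or the 24 h pair was dropped, 30 and 15 genes by the 2 summaries, and 25 to 67 with 1 array left out. Late against early (1) gave 0 with no filter, cyclic loess, quantile normalization, no variance trend, the spike-in class as a block, on dropping the 2 h or 12 h pair and by the 2 summaries, 2 with the filter at the 75th percentile, robust moderation, array weights or the 4 h pair dropped, 4 with the 24 h pair dropped, and 0 to 4 with 1 array left out. Differing probe sets from 2 to 24 h (5) gave 8 with no filter, 1 at the 75th percentile, 2 with array weights, 3 with the spike-in class as a block, 3 without the 4 h pair, and 0 to 5 with 1 array left out. The median member change from 2 to 24 h, 0.20, was 0.0212 after cyclic loess and 0.0076 after quantile normalization. That from 4 to 24 h, 0.32, was 0.42 after median centring, 0.0389 after cyclic loess and 0.0046 after quantile normalization. The median quercetin difference at 12 h, 0.04, was -0.0677 after cyclic loess and -0.0861 after quantile normalization, and that at 24 h, -0.08, was 0.018 and 0.0152. At a threshold of 0.5, 33, 3, 18 and 8 members differed at 2, 4, 12 and 24 h. Fewer arrays or fewer features enter where arrays, pairs or probe sets were left out, and the cause of the other shifts was not tested. The labels carry no replicate numbers, and the model compares quercetin with control within each time; with no time block 0 members were called. Of the called changes of named probe sets, 4 turned sign in an alternative, all by a scaling and none called there. From 4 to 24 h SRPK1 202200_s_at was -0.0122 after quantile normalization and SF3B1 211185_s_at -0.0137 after cyclic loess. From 12 to 24 h SF3B1 211185_s_at was -0.0052 after quantile normalization and HNRNPH1 213619_at -0.0997 after cyclic loess. The spike-in class is estimated from the 2 h pair alone, since only that pair spans both classes.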
